A study of Mus musculus with 15 samples.

Results

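The comparison described here set skin of allogeneic bone marrow recipients given both Wnt-C59 and belumosudil against skin of syngeneic recipients given vehicle, to ask which differences from syngeneic skin were present under both inhibitors. It used 8 of the 15 RNA libraries of the study, 4 from each group, and all 18651 genes that passed a filter on low counts, out of 56059 in the table. The study models sclerodermatous chronic graft-versus-host disease in mice, in which a bone marrow graft from another donor is followed by inflammation and scarring of the skin. Syngeneic recipients, whose graft matches the host, are its transplanted controls, so every animal in these groups had a transplant.

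Syngeneic recipients (n = 4) and the allogeneic recipients without drug (n = 3) received 0.4% methylcellulose, the vehicle, by mouth each day. The combination group (n = 4) consisted of allogeneic recipients dosed orally with Wnt-C59 at 5 mg/kg and belumosudil at 150 mg/kg a day, and another allogeneic group (n = 4) had Wnt-C59 at 5 mg/kg alone. Dosing ran from day 21 to day 49 after the transplant in all 4 groups. Donor and recipient strains, age, sex and the site of the skin piece are not given in the sources used here. Whether syngeneic and allogeneic recipients are of the same strain is not given either, and no label says that each library is a separate animal. The p-values therefore measure only the spread between these libraries, which may be partly technical. Columns of the combination libraries carry the numbers 2, 3, 4 and 5, and those of the Wnt-C59 libraries 1, 2, 4 and 5. They are named here by these numbers, which are not those of the sample titles.

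Chronic graft-versus-host disease of the skin starts with donor T cells that recognise antigens of the host. They release interferon-gamma, which raises antigen presentation and chemokines in the skin. Fibroblasts then lay down excess collagen while hair follicles and sebaceous glands are lost. Wnt proteins need a lipid that the enzyme porcupine attaches, and Wnt-C59 inhibits porcupine. Belumosudil inhibits ROCK2, a kinase that stiffens the actin skeleton and takes part in T cell helper programs and in the activation of fibroblasts.

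Estimated counts summed to 18.58 to 20.39 M in the syngeneic and to 19.41 to 28.78 M in the combination libraries. Skin markers were present in every library, with the basal keratinocyte keratin Krt14 at 1632 to 3266 CPM (counts per M of the scaled library size) in syngeneic and 7418 to 14698 CPM in combination skin, and the fibroblast collagen Col3a1 at 1298 to 2505 and 992 to 1759 CPM. Other differences separated the treated from the vehicle libraries. Of the non-zero values, 44.76% to 60.62% were not whole numbers in the 8 treated libraries, against 31.07% to 34.39% in the 7 vehicle libraries. Malat1, an abundant nuclear noncoding RNA, lay at 1071 to 2979 CPM in syngeneic and 2797 to 3501 CPM in allogeneic vehicle libraries, and at 65.1 to 125 CPM under Wnt-C59 and 71.9 to 136 CPM in the combination. Over 18227 genes with a GC content, the fold changes of the combination against syngeneic skin had a Spearman rho of 0.496 with GC content and of −0.361 with transcript length. For allogeneic vehicle against syngeneic skin these were −0.10 and −0.002, and in both cases genes are not independent replicates. Treatment cannot be told apart from a batch that runs along the same line.

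**Figure D1:**
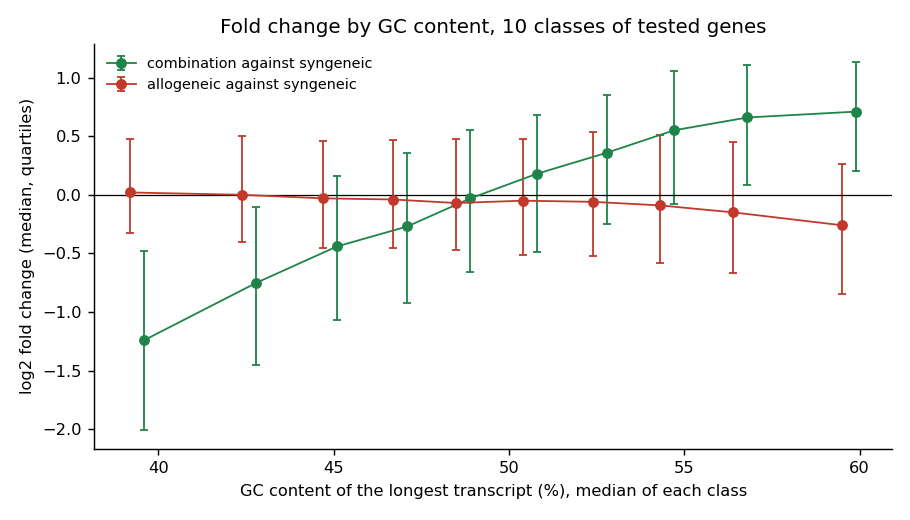
Median log2 fold change against syngeneic skin, with quartiles as bars, in 10 classes of tested genes ordered by the GC content of the longest transcript. The combination runs from −1.24 in the lowest class to 0.71 in the highest, while allogeneic vehicle skin runs from 0.02 to −0.26.

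The slope in the plot of fold change by GC content bears on every fold change below. Genes were therefore also tested after the trend with GC content had been removed. For single genes this was read for the combination against syngeneic skin only, where the loss of a call is given beside the gene. For the combination against allogeneic vehicle skin rho was 0.541 with GC content and −0.297 with length. Differences of single genes from allogeneic vehicle skin given below were not read after that step. A call could also be kept with a much smaller difference, which is given for some genes only. Fold changes are relative to a scaling under which the median gene differed by 0.01 on the log2 scale.

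The combination libraries were not alike. Libraries 2 and 3 correlated with each other at r = 0.979 across genes and with the Wnt-C59 libraries at 0.954 to 0.968. Libraries 4 and 5 correlated with the syngeneic libraries at 0.864 to 0.938, against 0.797 to 0.869 for libraries 2 and 3. With the Wnt-C59 libraries, libraries 4 and 5 correlated at 0.887 to 0.927. Keratins and trichohyalin of the inner root sheath, which moulds the growing hair, had a mean level of 0.54, 0.59, 9.95 and 7.30 log2 CPM in combination libraries 2 to 5. The syngeneic libraries lay at 7.81 to 9.24 and the allogeneic vehicle libraries at 0.32 to 0.53. Hair RNA in combination libraries 4 and 5 was thus at or near the syngeneic level, and in libraries 2 and 3 at the level of allogeneic skin. Skeletal muscle genes of the thin muscle sheet under mouse skin differed as well, at 9.65, 8.32, 6.36 and 1.20 log2 CPM in combination libraries 2 to 5, against 7.01 to 8.34 in syngeneic skin. Where a result rests on either pair, its value without that pair is given.

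**Figure D2:**
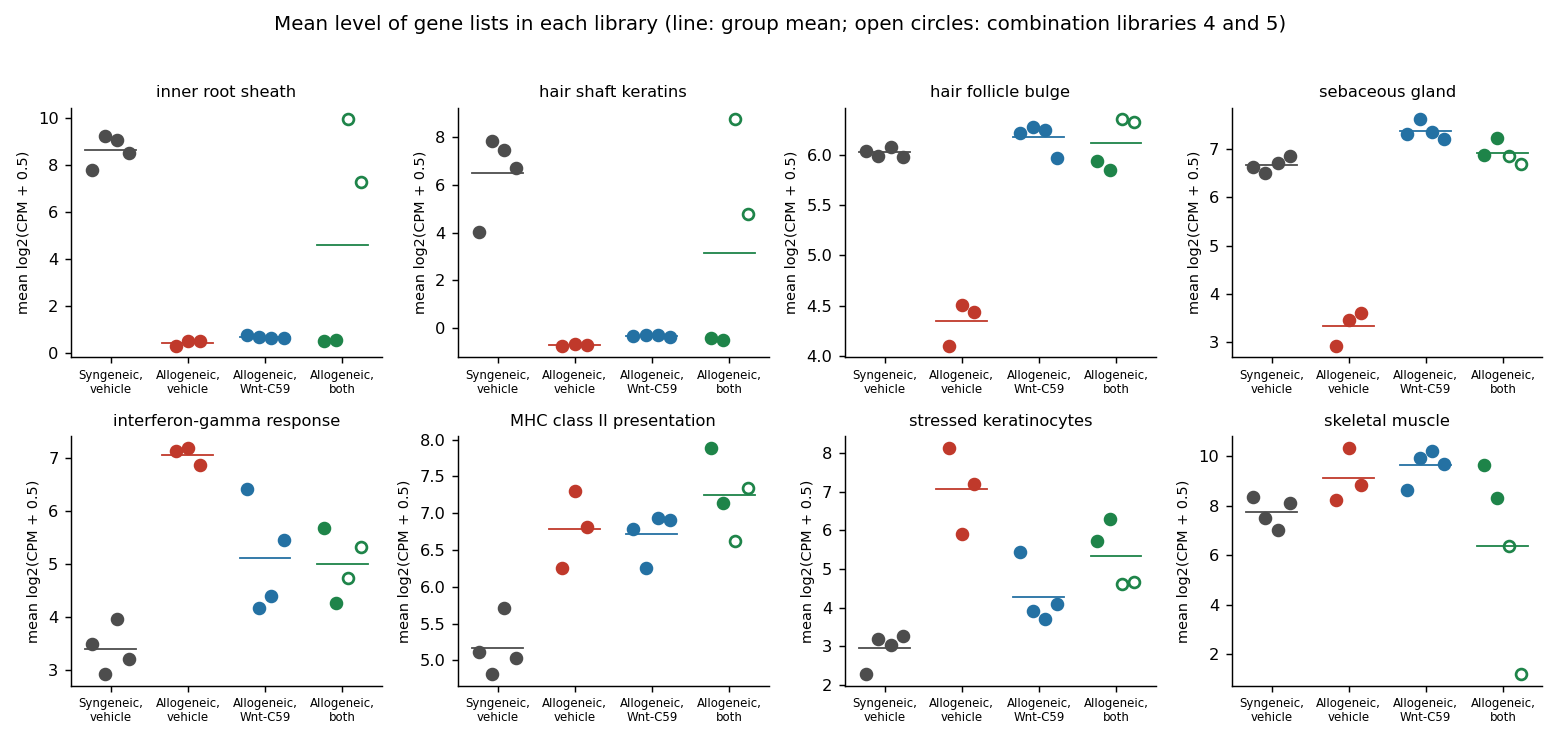
Mean log2(CPM + 0.5) of 8 gene lists in each of the 15 libraries, by group, with the group mean as a line and combination libraries 4 and 5 as open circles. The inner root sheath and hair shaft lists split the combination group into libraries at or near the syngeneic level and libraries near 0. The bulge list lies at 5.85 to 6.35 in the combination and 5.98 to 6.08 in syngeneic libraries. Sebaceous gland genes of all 4 combination libraries sit within or above the syngeneic range.

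Of the 18651 genes tested, 10081 (54.1%) differed between combination and syngeneic skin, 5013 higher (26.9%) and 5068 lower (27.2%), at an adjusted p under 0.05. At least 2-fold differences were found for 2490 of the higher and 3282 of the lower genes. Removal of the GC trend left 4291 higher and 3966 lower. Allogeneic vehicle skin, set against the same 4 syngeneic libraries, had 2732 genes higher (14.6%) and 2824 lower (15.1%). Without allogeneic vehicle library 3 the lower count was 1653. Both comparisons share the syngeneic libraries, so their values are given side by side and their likeness is not scored. The percentages are the background for the count of each gene list below, and a list whose share is near them says nothing particular about its members. The direct comparison of the combination with allogeneic vehicle skin called 5055 genes higher (27.1%) and 5113 lower (27.4%).

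**Figure D3:**
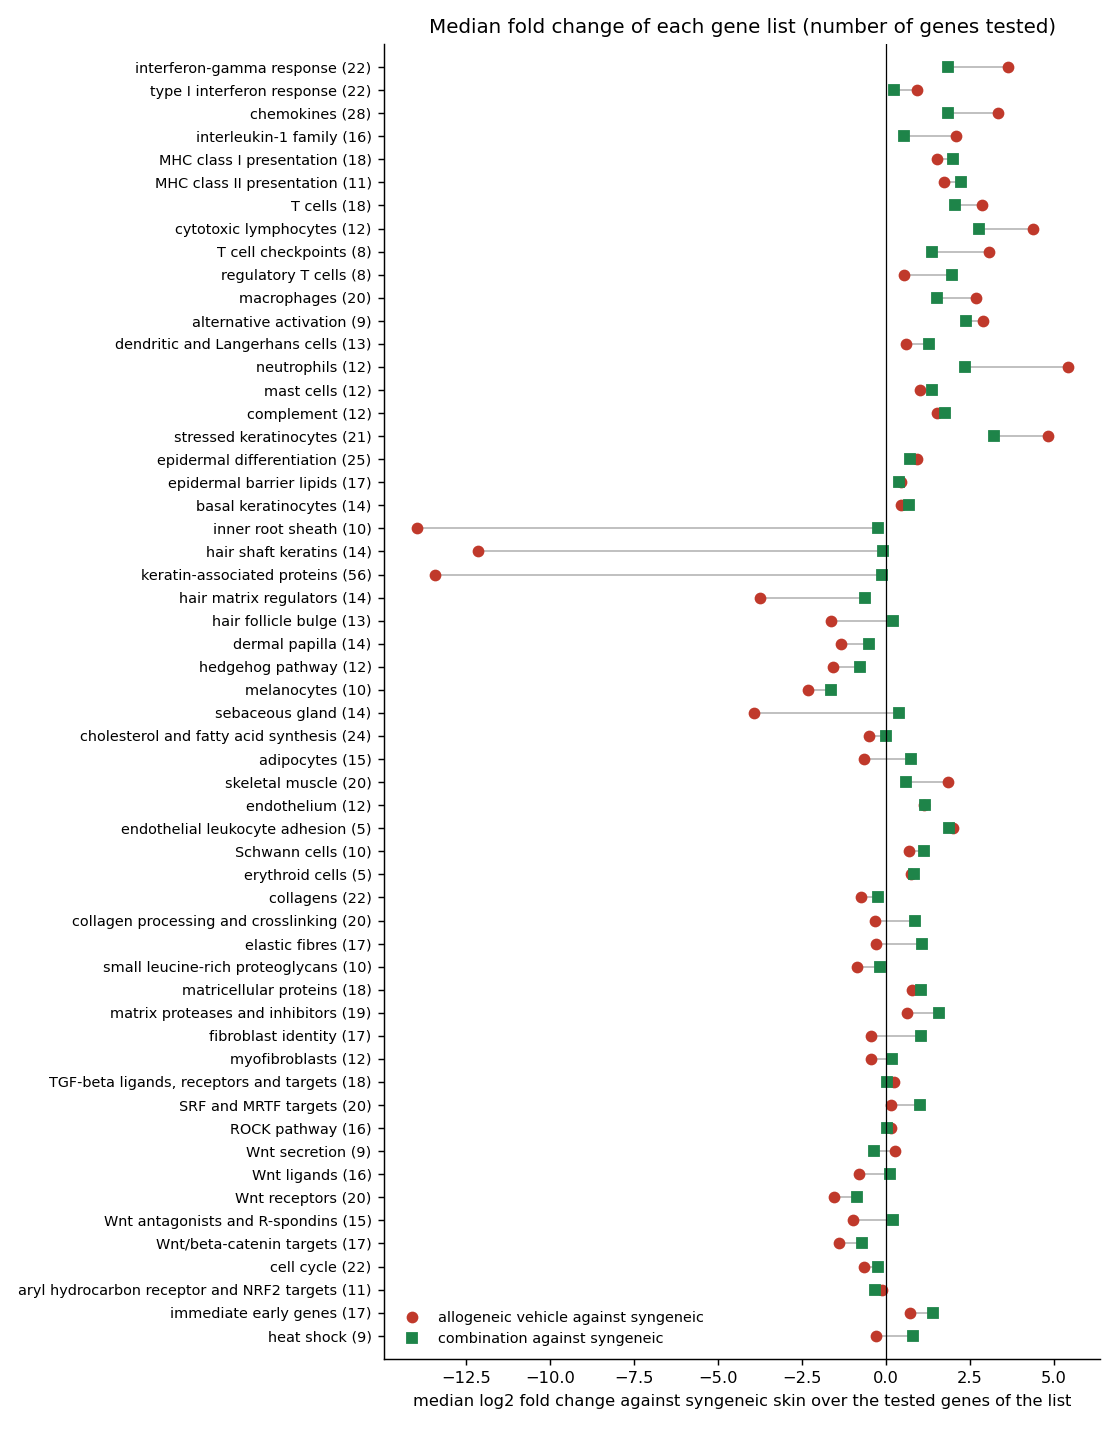
Median log2 fold change against syngeneic skin over the tested genes of each list, for allogeneic vehicle skin (red circles) and the combination (green squares), with the number of genes tested in brackets. Interferon-gamma, T cell and macrophage lists lie right of 0 in both, while the sebaceous gland list lies at −3.93 in allogeneic vehicle skin and at 0.39 in the combination.

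Genes induced by interferon-gamma were higher in combination than in syngeneic skin. Of the 22 genes on the list, 15 rose, 0 fell and 7 did not pass, with a median log2 change (the log2 of the fold change) of 1.84. In allogeneic vehicle skin 22 of the same genes rose, with a median of 3.65, and 16 of them were lower in the combination than in allogeneic vehicle skin. In RNA from whole skin, fewer cells of a type and less RNA per cell cannot be told apart.

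Irf1 (ENSMUSG00000018899.18), a transcription factor that interferon-gamma induces, lay at 18.9, 14.7, 27.5 and 23.7 CPM in syngeneic libraries 1 to 4 and at 172, 79.6, 110.1 and 137 CPM in combination libraries 2 to 5. Every combination library was above every syngeneic one (log2 change 2.56, SE 0.33, adjusted p = 3.5e-05). Allogeneic vehicle libraries held 180.1, 149 and 161 CPM, and the difference of the combination from these was −0.39 (adjusted p = 0.34). Cxcl9 (ENSMUSG00000029417.10), a chemokine that draws activated T cells through the receptor CXCR3, stood at 3.62, 2.69, 8.29 and 3.44 CPM in the syngeneic and 52.8, 18.1, 33.4 and 38.9 CPM in the combination libraries. It rose without overlap (log2 change 2.99, SE 0.69, adjusted p = 0.003). The allogeneic vehicle libraries, at 675, 264 and 360.0 CPM, were all above the combination, which was lower by a log2 change of −3.60 (adjusted p = 0.0011). By test the combination was thus below allogeneic vehicle skin for Cxcl9 and not for Irf1.

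Irf8, a factor of macrophages and dendritic cells, was at 7.57, 8.07, 9.25 and 9.26 CPM in syngeneic and 68.3, 46.4, 28.5 and 40.2 CPM in combination skin, with no overlap (log2 change 2.42, SE 0.30, adjusted p = 2.2e-05). Socs1, the feedback inhibitor of the interferon receptor kinases, was at 5.64, 4.08, 6.73 and 6.26 CPM and 56.3, 21.3, 19.3 and 24.3 CPM (log2 change 2.42, SE 0.41, adjusted p = 0.00024). Ubd, a ubiquitin-like protein of inflamed tissue, was near 0 in syngeneic skin, at 0.0459, 0.0928, 0.366 and 0.176 CPM, and at 10.2, 3.51, 3.22 and 5.11 CPM in the combination (log2 change 4.97, SE 0.81, adjusted p = 0.00021). Irf8 and Socs1 of allogeneic vehicle skin differed from syngeneic skin by 2.50 and 2.42, and Ubd by 7.23. Against allogeneic vehicle skin, Ubd alone of these 3 passed as lower in the combination (log2 change −2.26, adjusted p = 0.011). Ifng, which encodes interferon-gamma itself and was chosen after its values were seen, had 0.0459, 0, 0.0916 and 0.0441 CPM in syngeneic and 0.970, 0.289, 0.339 and 0.452 CPM in combination libraries (log2 change 3.35, SE 0.86, adjusted p = 0.0043). The allogeneic vehicle libraries held 3.58, 2.87 and 3.44 CPM, more than any combination library.

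Genes of the type I interferon response mostly did not pass. Of 22, 3 rose and 2 fell, with a median of 0.23, against 5 that rose in allogeneic vehicle skin. Oas1a, which makes the messenger that starts RNA decay in infected cells, was at 14.4, 12.1, 40.3 and 13.1 CPM in syngeneic and 133, 46.6, 31.2 and 95.4 CPM in combination skin, and the groups overlapped (log2 change 1.94, SE 0.62, adjusted p = 0.019). Ifit2, which binds foreign RNA, moved the other way, from 20.7, 11.0, 33.4 and 9.00 to 5.74, 2.21, 3.22 and 7.78 CPM (log2 change −1.96, SE 0.56, adjusted p = 0.0098). Neither call was stable. Oas1a lost it without combination library 2 (adjusted p = 0.062), or without syngeneic library 1, 2 or 4 (adjusted p = 0.057, 0.058 and 0.054), or without combination libraries 2 and 3 (adjusted p = 0.09), and Ifit2 lost it with the GC trend removed (adjusted p = 0.1) or without combination libraries 2 and 3 (adjusted p = 0.099). The count of type I genes that rose was 0 without syngeneic library 1, 2 or 4 or combination library 2, 1 without combination library 5 and 7 without syngeneic library 3.

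Of 28 chemokines, 15 rose and none fell, with a median of 1.85. In allogeneic vehicle skin 21 rose and 2 fell, with a median of 3.35. Against allogeneic vehicle skin directly, 13 chemokines were lower in the combination and 6 higher. Ccl22, which attracts regulatory and helper T cells through CCR4, was among those that lay higher. Its level was 2.52, 2.13, 4.03 and 2.12 CPM in the syngeneic and 43.3, 27.5, 19.1 and 20.9 CPM in the combination libraries, with no overlap (log2 change 3.35, SE 0.59, adjusted p = 0.00038). Allogeneic vehicle skin held 2.61, 19.8 and 3.16 CPM, with only library 2 within the combination range (combination against allogeneic vehicle, log2 change 1.70, adjusted p = 0.031). Ccl17, the other ligand of CCR4, was at 0.413, 0.0464, 0.458 and 0.265 CPM in syngeneic and 18.1, 2.02, 5.65 and 6.51 CPM in combination skin (log2 change 4.75, SE 0.69, adjusted p = 7.5e-05), and its difference from allogeneic vehicle skin was −0.12 (adjusted p = 0.88).

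Cxcl16, a membrane chemokine for activated T cells, rose from 28.1, 23.4, 33.6 and 28.8 to 161, 109.6, 70.4 and 113 CPM (log2 change 1.99, SE 0.21, adjusted p = 8.7e-06), and allogeneic vehicle libraries were at 119, 89.9 and 122 CPM. Cx3cl1, a membrane chemokine for monocytes and cytotoxic lymphocytes, rose from 10.8, 10.3, 12.5 and 11.7 to 36.4, 20.2, 30.3 and 33.9 CPM (log2 change 1.42, SE 0.18, adjusted p = 2.6e-05). With the GC trend removed this log2 change was 0.81 (adjusted p = 0.0021). Cx3cl1 missed the threshold in allogeneic vehicle skin (log2 change 0.43, adjusted p = 0.11), and the combination was higher than that skin (log2 change 0.99, adjusted p = 0.00073). Under Wnt-C59 alone it was at 41.5, 28.3, 35.2 and 35.3 CPM. Ccl8, a monocyte chemokine chosen after its values were seen, had its highest values in allogeneic vehicle skin, at 1447, 1199 and 1203 CPM. The combination libraries were at 291, 157, 121 and 266 CPM, above 62.3 to 129 CPM in syngeneic skin in all but library 4 (log2 change 1.29, SE 0.30, adjusted p = 0.0024).

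Interleukin-1 family genes were raised in part, with 6 of 16 up and 1 down, against 12 up in allogeneic vehicle skin. Il1f6, an IL-36 cytokine made by keratinocytes, rose from 0.642, 0.510, 0.412 and 1.94 to 9.97, 7.74, 3.50 and 8.96 CPM without overlap (log2 change 3.09, SE 0.60, adjusted p = 0.00068), and allogeneic vehicle libraries were higher still at 22.1, 16.7 and 23.8 CPM. Il1rap, the shared receptor chain, fell from 34.5, 21.9, 17.9 and 22.5 to 7.45, 12.1, 10.5 and 12.9 CPM (log2 change −1.17, SE 0.27, adjusted p = 0.002), a call lost with the GC trend removed (adjusted p = 0.28). The family had 2 members called higher without combination libraries 2 and 3.

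Genes of antigen presentation were higher almost throughout. Of 18 genes of MHC class I presentation, which shows peptides from inside the cell to CD8 T cells, 17 rose and 1 did not pass, with a median of 2.01. Of 11 genes of MHC class II presentation, which shows engulfed proteins to CD4 T cells, 10 rose, with a median of 2.24. The medians in allogeneic vehicle skin were 1.53 and 1.72, with 18 and 9 genes higher. Directly against allogeneic vehicle skin, 4 class I genes were higher in the combination and 2 lower, and 4 class II genes were higher and 1 lower.

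H2-K1, a classical class I heavy chain, was at 542, 521, 993 and 704 CPM in syngeneic and 4053, 2958, 2016 and 2992 CPM in combination libraries, with no overlap (log2 change 2.12, SE 0.25, adjusted p = 1.6e-05). Allogeneic vehicle libraries stood at 1612, 1872 and 1803 CPM, all below the combination (log2 change 0.77, adjusted p = 0.023). H2-D1 ranged over 834 to 1499 CPM in syngeneic and 3511 to 7509.6 CPM in combination skin (log2 change 2.30, SE 0.26, adjusted p = 1.1e-05), and H2-Q4, a nonclassical class I gene, over 192 to 314 and 721 to 1497 CPM (log2 change 2.17, SE 0.23, adjusted p = 9.2e-06). Class I genes have near-identical copies and differ between strains, and how reads that fit several of them were shared is not given in the sources used here. Without the mouse strains, an allele of the host or the donor that maps poorly cannot be told apart from a difference in RNA.

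H2-Ab1 (ENSMUSG00000073421.7), a class II beta chain, was at 204, 161, 359 and 186 CPM in syngeneic and 2401, 1520.3, 851 and 1431 CPM in combination libraries. Every combination library exceeded every syngeneic library (log2 change 2.77, SE 0.37, adjusted p = 3.5e-05). The allogeneic vehicle libraries, at 428, 1055 and 730.3 CPM, overlapped the combination, which was higher on average (log2 change 1.07, adjusted p = 0.028). Ifi30, a reductase that opens antigens inside the cell for class II loading, ranged over 33.8 to 60.0 CPM in syngeneic and 145 to 239 CPM in combination skin (log2 change 2.08, SE 0.20, adjusted p = 5.5e-06). H2-Aa (ENSMUSG00000036594.16) and H2-Eb1 (ENSMUSG00000060586.12), the other class II chains given here and chosen after their values were seen, moved alike. H2-Aa was at 1679, 961, 688 and 1205 CPM against 216, 172, 365 and 205 CPM (log2 change 2.24, SE 0.34, adjusted p = 0.00011), and H2-Eb1 at 2233, 1269, 764 and 1372 CPM against 183, 173, 360.4 and 184 CPM (log2 change 2.65, SE 0.39, adjusted p = 9e-05). Combination library 2 was the highest of all 15 libraries for H2-Ab1, H2-Aa and H2-Eb1.

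Promoters of class II genes often hold a Y box, ATTGG or CCAAT on the other strand, which the factor NF-Y binds. Since the class II chains rose together, a promoter is shown for H2-Aa and H2-Eb1, from 250 bases before the start of transcription to 50 after it, as given by RefSeq on build GRCm38.p6. The H2-Aa promoter lies at chr17:34287774-34288073 on the minus strand and that of H2-Eb1 at chr17:34305617-34305916 on the plus strand. Capitals mark the Y boxes.
H2-Aa: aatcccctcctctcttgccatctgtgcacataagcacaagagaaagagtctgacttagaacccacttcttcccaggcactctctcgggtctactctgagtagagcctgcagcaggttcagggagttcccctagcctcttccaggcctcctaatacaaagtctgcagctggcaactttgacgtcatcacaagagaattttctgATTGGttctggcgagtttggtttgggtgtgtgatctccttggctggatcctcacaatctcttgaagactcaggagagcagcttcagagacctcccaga
H2-Eb1: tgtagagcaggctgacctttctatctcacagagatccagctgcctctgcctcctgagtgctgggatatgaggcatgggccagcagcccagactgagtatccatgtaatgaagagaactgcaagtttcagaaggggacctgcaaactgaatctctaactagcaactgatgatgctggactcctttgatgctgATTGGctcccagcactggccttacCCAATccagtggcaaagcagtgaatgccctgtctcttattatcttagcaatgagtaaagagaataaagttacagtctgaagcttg
The Y box of H2-Aa begins 48 bases before the start, and the matches of H2-Eb1 begin 59 and 35 bases before it. On either strand, a Y box was found in 7 of 10 class II promoters (70.0%), in 13 of 19 class I promoters (68.4%) and in 37.4% of all 32851 promoters of the same length. These matches describe letters in a window, not binding.

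T cell genes were higher in combination than in syngeneic skin, with 15 of 18 up, none down and a median of 2.07. The allogeneic vehicle group had 17 up with a median of 2.85, and 8 were lower in the combination than there. Cd3e, a signalling chain of the T cell receptor, was at 1.10, 0.742, 1.42 and 1.72 CPM in syngeneic and 8.61, 3.61, 4.52 and 5.07 CPM in combination libraries, with no overlap (log2 change 2.13, SE 0.33, adjusted p = 0.00011). Allogeneic vehicle libraries held 10.7, 8.32 and 12.9 CPM (combination against these, log2 change −0.96, adjusted p = 0.023). Cd4, the coreceptor of helper T cells, rose from 1.01, 1.53, 1.10 and 0.882 to 12.6, 9.14, 7.23 and 9.00 CPM (log2 change 3.07, SE 0.26, adjusted p = 4.3e-06), a mean of 9.50 ± 2.25 CPM (SD, n = 4) in the combination and 15.8 ± 4.52 CPM (SD, n = 3) in allogeneic vehicle skin.

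Cd8a, a chain of the coreceptor of cytotoxic T cells, was at 0.0459, 0.0928, 0.0916 and 0.353 CPM in syngeneic and 3.53, 3.37, 2.49 and 1.86 CPM in combination libraries (log2 change 4.20, SE 0.57, adjusted p = 3.9e-05). All allogeneic vehicle libraries were higher, at 14.8, 8.44 and 21.1 CPM, and the combination was lower than these by a log2 change of −2.39 (adjusted p = 0.00076). Genes of cytotoxic lymphocytes rose in 8 of 12 cases, with a median of 2.78 against 4.39 in allogeneic vehicle skin, and 8 were lower in the combination than there. Prf1, the pore former perforin, rose from 0.321, 0.371, 0.137 and 0.441 to 3.10, 2.21, 1.47 and 1.54 CPM (log2 change 2.69, SE 0.49, adjusted p = 0.00039) and was at 9.90, 4.55 and 12.8 CPM in allogeneic vehicle skin. Gzmb, the granule protease that enters through that pore, rose from 0.413, 0.510, 0.824 and 0.750 to 11.7, 4.81, 2.60 and 4.07 CPM (log2 change 3.20, SE 0.55, adjusted p = 0.00026). Its highest combination value, in library 2, lay within the allogeneic vehicle range of 7.96 to 16.9 CPM.

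Checkpoint and regulatory genes were also raised. Of 8 T cell checkpoint genes, 6 rose, with a median of 1.38 against 3.08 in allogeneic vehicle skin. Pdcd1, the inhibitory receptor PD-1, was at 0.0459, 0, 0.0458 and 0.0882 CPM in syngeneic and 3.30, 4.47, 0.339 and 1.90 CPM in combination libraries (log2 change 5.61, SE 0.91, adjusted p = 0.00016), with library 4 the lowest of its group. Pdcd1lg2, its ligand PD-L2, rose from 0.184, 0.510, 0.458 and 0.706 to 15.9, 7.55, 3.39 and 8.28 CPM (log2 change 4.22, SE 0.53, adjusted p = 2.3e-05).

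Regulatory T cell genes had a higher median in the combination, 1.96, than in allogeneic vehicle skin, 0.54. Of the 8 genes, 6 rose and 1 fell in the combination, and 3 rose in allogeneic vehicle skin. Tnfrsf18, the costimulatory receptor GITR, was at 19.2, 19.8, 34.9 and 24.2 CPM in syngeneic and 122, 139, 62.8 and 70.1 CPM in combination libraries, without overlap (log2 change 2.00, SE 0.33, adjusted p = 0.00018). Allogeneic vehicle libraries, at 12.3, 21.0 and 10.9 CPM, reached no combination value (log2 change 2.74, adjusted p = 5e-05). Tnfrsf4, the costimulatory receptor OX40, also exceeded both vehicle groups in the combination, with 3.76 to 6.32 CPM in syngeneic, 5.24 to 6.38 CPM in allogeneic vehicle and 15.8 to 26.8 CPM in combination skin (log2 change 2.19, SE 0.23, adjusted p = 8.6e-06). Both receptors were also above the syngeneic range under Wnt-C59 alone, Tnfrsf18 at 46.4 to 93.3 and Tnfrsf4 at 13.4 to 22.7 CPM. No Tnfrsf18 value of allogeneic vehicle skin exceeded the syngeneic range. Which cells carried the RNA of these receptors was not tested.

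Foxp3, the factor that defines regulatory T cells and was chosen after its values were seen, was at 0.826, 1.44, 1.74 and 0.706 CPM in syngeneic, 1.22, 1.98 and 1.92 CPM in allogeneic vehicle and 7.25, 4.18, 2.20 and 4.25 CPM in combination libraries (log2 change 1.92, SE 0.41, adjusted p = 0.0012). It was higher in the combination than in allogeneic vehicle skin (log2 change 1.39, adjusted p = 0.016). Ikzf2, a factor of regulatory T cells that is also expressed outside the immune system, fell from 46.9, 29.9, 18.4 and 34.9 to 6.09, 8.13, 4.75 and 9.18 CPM (log2 change −2.21, SE 0.27, adjusted p = 2e-05), with allogeneic vehicle libraries at 28.5, 40.3 and 28.6 CPM. Jchain, which links antibody chains in plasma cells, rose from 0.138, 0.232, 0.549 and 0.0441 to 17.1, 7.74, 7.80 and 15.0 CPM (log2 change 5.60, SE 1.39, adjusted p = 0.0047), and allogeneic vehicle libraries spread over 16.8 to 62.0 CPM. Of 4 B and plasma cell genes tested, 3 rose.

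Of 20 macrophage genes, 12 rose and 1 fell, with a median of 1.52. The allogeneic vehicle group had 18 that rose, with a median of 2.68, and 14 were lower in the combination than there. Lyz2, lysozyme of myeloid cells, was at 191, 176, 305 and 176 CPM in syngeneic and 939.8, 668, 559 and 706 CPM in combination libraries (log2 change 1.76, SE 0.23, adjusted p = 3.4e-05). It stood apart from both neighbours, since allogeneic vehicle libraries were at 1801, 1835 and 2134 CPM (log2 change −1.42, adjusted p = 0.00023). Cd68, a lysosomal protein of macrophages, rose from 13.3, 13.5, 18.2 and 17.4 to 104, 89.5, 62.2 and 106 CPM (log2 change 2.53, SE 0.22, adjusted p = 4.3e-06), and here allogeneic vehicle libraries at 93.9, 59.7 and 117 CPM overlapped the combination (log2 change 0.01, adjusted p = 0.99). C1qb, a chain of complement C1q that macrophages make, rose from 33.6, 36.2, 80.0 and 42.2 to 389, 258, 161 and 274 CPM (log2 change 2.49, SE 0.32, adjusted p = 2.7e-05).

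Among 9 genes of alternative activation, 5 rose, and 3 without combination libraries 2 and 3. Chil3, a chitinase-like protein of activated macrophages and neutrophils, was at 0.0917, 0.139, 0 and 0.221 CPM in syngeneic, 1362, 97.7 and 1434 CPM in allogeneic vehicle and 11.5, 16.5, 0.848 and 1.72 CPM in combination libraries (log2 change 6.00, SE 1.60, adjusted p = 0.0074), a call lost without combination libraries 2 and 3 (adjusted p = 0.14) and with limma-voom (adjusted p = 0.17). Mgl2, a lectin of dermal macrophages and dendritic cells, took another order, with 29.3, 18.4, 37.3 and 21.7 CPM in syngeneic and 231, 109, 68.4 and 116 CPM in combination libraries (log2 change 2.30, SE 0.49, adjusted p = 0.0016) and 14.8, 71.9 and 40.0 CPM in allogeneic vehicle skin. Il4ra, the receptor chain for IL-4 and IL-13, rose from 24.7, 34.7, 45.2 and 25.8 to 248, 265, 84.6 and 83.9 CPM (log2 change 2.38, SE 0.43, adjusted p = 0.00043).

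Dendritic and Langerhans cell genes rose in 6 and fell in 1 of 13 cases, against 2 and 3 in allogeneic vehicle skin. Batf3, a factor of cross-presenting dendritic cells, rose from 0.413, 1.02, 1.14 and 1.10 to 14.9, 9.33, 6.56 and 8.64 CPM (log2 change 3.41, SE 0.44, adjusted p = 2.9e-05). Ccr7, which guides dendritic cells to lymph nodes, was at 0.780, 0.788, 1.47 and 0.573 CPM in syngeneic, 0.365, 4.19 and 0.733 CPM in allogeneic vehicle and 12.2, 18.6, 2.49 and 5.93 CPM in combination libraries (log2 change 3.44, SE 0.73, adjusted p = 0.0013). Combination libraries 2 and 3 were the highest of all 15 for Ccr7, and Fscn1, an actin bundler of mature dendritic cells chosen after its values were seen, was at 126, 201, 119 and 107 CPM against 31.8, 47.2, 68.2 and 46.3 CPM (log2 change 1.52, SE 0.25, adjusted p = 0.00017). Cd207, langerin of Langerhans cells, also chosen after its values were seen, was at 31.6, 23.5, 23.7 and 26.1 CPM in all 4 combination libraries and at 0.122, 7.07 and 0.113 CPM in allogeneic vehicle skin (log2 change 3.43, adjusted p = 0.017). Against syngeneic skin, at 14.8, 8.58, 12.1 and 7.50 CPM, it did not pass (adjusted p = 0.23), except with limma-voom (adjusted p = 0.037) or in a fit of the 2 groups alone (adjusted p = 0.0018).

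Of 12 neutrophil genes, 4 rose, a share near the 26.9% over all genes, and none fell. Without combination libraries 2 and 3, 1 was called higher. Cxcr2, the neutrophil chemokine receptor, was at 0.596, 0.649, 0.275 and 1.01 CPM in syngeneic, 30.7, 34.3 and 38.6 CPM in allogeneic vehicle and 11.8, 29.1, 2.49 and 4.84 CPM in combination libraries (log2 change 4.23, SE 0.76, adjusted p = 0.00045). Combination library 3 alone was close to the allogeneic vehicle range. The mean level of the neutrophil list was 4.23, 1.10 and 2.85 log2 CPM in allogeneic vehicle libraries 1 to 3, an order that Cxcr2 did not follow. Which cells carried Cxcr2 RNA was not tested. Of 12 mast cell genes, 8 rose and 1 fell, against 5 and 1 in allogeneic vehicle skin, and 5 rose without combination libraries 4 and 5. Tpsb2, a tryptase of connective tissue mast cells, was at 7.39, 3.94, 7.37 and 10.5 CPM in syngeneic and 52.1, 29.6, 42.8 and 37.5 CPM in combination libraries, with no overlap (log2 change 2.47, SE 0.47, adjusted p = 0.00067). Under Wnt-C59 alone it was at 17.8, 2.63, 5.83 and 7.08 CPM, below every combination library. By direct test, however, 0 of the 12 mast cell genes passed between the combination and Wnt-C59. Mrgprb2, the receptor through which mast cells sense peptides, fell from 8.44, 6.68, 8.51 and 5.82 to 1.05, 1.35, 2.83 and 3.44 CPM (log2 change −1.77, SE 0.32, adjusted p = 0.00038), a call lost with the GC trend removed (adjusted p = 0.19).

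**Figure D4:**
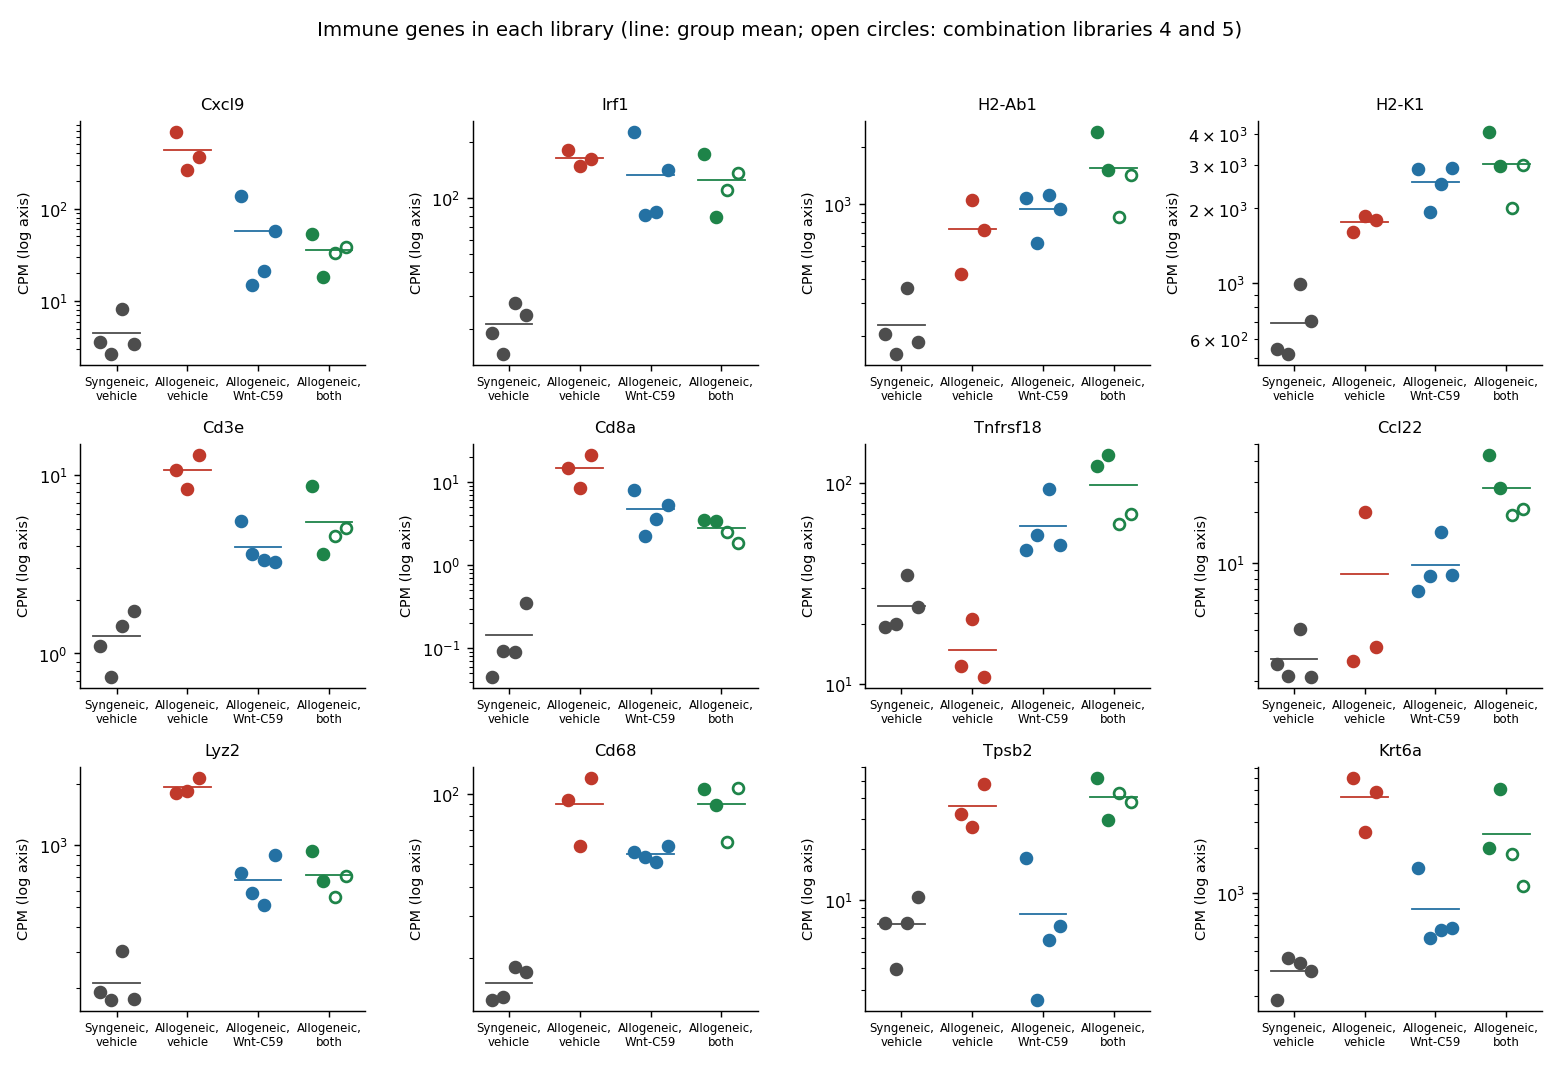
CPM on a log axis of 12 immune and keratinocyte genes in each of the 15 libraries, with group means as lines and combination libraries 4 and 5 as open circles. For Cxcl9, Cd8a and Lyz2 the combination lies between syngeneic and allogeneic vehicle skin, for Irf1 and Cd68 it overlaps allogeneic vehicle skin, and for Tnfrsf18 and H2-K1 all 4 combination libraries lie above both vehicle groups.

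Complement genes rose in 11 of 12 cases, with a median of 1.76 against 1.52 in allogeneic vehicle skin, where 9 rose. C1ra, a protease of the first complement complex, was at 39.1, 29.3, 61.9 and 35.3 CPM in syngeneic and 274, 155, 98.6 and 192 CPM in combination libraries (log2 change 2.12, SE 0.31, adjusted p = 7.3e-05). Serping1, the inhibitor of that protease, ranged over 84.0 to 213 CPM in syngeneic and 287 to 692 CPM in combination skin (log2 change 1.80, SE 0.30, adjusted p = 0.00019). Allogeneic vehicle skin, at 169.8 to 192 CPM, did not pass for Serping1 (log2 change 0.41, adjusted p = 0.34), and the combination was higher than it (log2 change 1.39, adjusted p = 0.0025). C3ar1, the receptor for the fragment C3a, rose from 5.46, 4.50, 7.92 and 5.69 to 26.9, 19.1, 14.9 and 25.1 CPM (log2 change 1.87, SE 0.33, adjusted p = 0.00028) but was lower than in allogeneic vehicle skin (log2 change −1.71, adjusted p = 0.0007).

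Endothelial genes rose in 10 of 12 cases in the combination and in 10 in allogeneic vehicle skin. Eng, a coreceptor for TGF-beta on vessels, rose from 34.1, 29.8, 53.9 and 30.9 to 181, 222, 99.5 and 139.7 CPM (log2 change 2.11, SE 0.24, adjusted p = 1.2e-05). All 5 genes of leukocyte adhesion on vessels rose, with a median of 1.87 against 2.00 in allogeneic vehicle skin. Icam1, a ligand of leukocyte integrins, rose from 25.0, 18.7, 31.0 and 21.5 to 103, 114, 57.4 and 76.3 CPM (log2 change 1.87, SE 0.24, adjusted p = 2.8e-05) and did not differ by test from allogeneic vehicle skin (log2 change −0.04, adjusted p = 0.9). Vcam1, which binds integrin alpha-4, rose from 4.22, 2.69, 4.53 and 3.00 to 15.6, 15.0, 9.44 and 30.4 CPM (log2 change 2.29, SE 0.41, adjusted p = 0.00039), with all allogeneic vehicle libraries higher at 126, 59.8 and 119 CPM. Selp, P-selectin, lost its call without combination libraries 2 and 3 (log2 change 1.92, SE 0.52, adjusted p = 0.0068, adjusted p = 0.23 without them), when 3 of the adhesion genes were called.

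Genes that keratinocytes of stressed and wounded epidermis express were higher in the combination. Of 21 genes, 17 rose and none fell, with a median of 3.21, against 18 and 4.82 in allogeneic vehicle skin. Directly compared, 9 were lower and 1 higher in the combination than in allogeneic vehicle skin. Krt6a, a keratin of wounds and hyperplastic epidermis, was at 189, 359.5, 335 and 293 CPM in syngeneic and 2006, 5005, 1824 and 1101 CPM in combination libraries, without overlap (log2 change 3.08, SE 0.50, adjusted p = 0.00018). Combination library 3 lay within the allogeneic vehicle range of 2587 to 5991 CPM and the other combination libraries below it. Krt16, its usual partner, rose from 12.4, 40.2, 44.4 and 23.02 to 1451, 5124, 277 and 595 CPM (log2 change 5.96, SE 1.07, adjusted p = 0.00054), and again library 3 was the highest and library 4 the lowest. Sprr2a2, a cornified envelope protein of inflamed skin, rose from 16.9, 1.72, 9.43 and 4.37 to 811, 132, 87.6 and 551 CPM (log2 change 5.61, SE 1.15, adjusted p = 0.0014) and was lower than in allogeneic vehicle skin (log2 change −3.69, adjusted p = 0.012). Without combination libraries 2 and 3 the list held 10 called genes, and 10 with limma-voom.

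Krt17, a keratin of stressed epidermis and of hair follicles, was at 1098, 1610.3, 2709 and 1663 CPM in syngeneic and 4813, 5972, 6855 and 3119 CPM in combination libraries (log2 change 1.55, SE 0.31, adjusted p = 0.00078). Allogeneic vehicle skin missed the threshold for it (log2 change −0.48, adjusted p = 0.3). The basal keratin Krt14 rose from 1973, 1632, 3266 and 2907 to 10632, 14698, 7418 and 8877 CPM (log2 change 2.09, SE 0.28, adjusted p = 4e-05), and Itgb4, which anchors basal cells to the basement membrane, from 169.8, 154, 170.1 and 135 to 584, 775, 309 and 374 CPM (log2 change 1.70, SE 0.25, adjusted p = 6.6e-05). Of 14 basal keratinocyte genes, 6 rose and 3 fell. Trp63, the master factor of basal keratinocytes, was among those that fell, from 324, 294, 219 and 247 to 105, 115, 128 and 138 CPM (log2 change −1.16, SE 0.15, adjusted p = 2.5e-05). It was at 276, 252 and 300.3 CPM in allogeneic vehicle skin and at 156, 129.7, 121 and 128 CPM under Wnt-C59.

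Genes of epidermal differentiation moved both ways, 8 up and 4 down of 25, against 26.9% higher and 27.2% lower over all genes. Cdsn, corneodesmosin of the outer layers, rose from 288, 521, 517 and 501 to 1370.3, 1032, 1779 and 1065 CPM (log2 change 1.52, SE 0.28, adjusted p = 0.0004). The desmosomal cadherins Dsc1 and Dsg1a fell, Dsc1 from 325, 345, 129 and 313 to 45.7, 52.0, 73.1 and 57.8 CPM (log2 change −2.28, SE 0.31, adjusted p = 4.6e-05) and Dsg1a from 1021, 837, 622 and 886 to 212, 214, 276 and 313 CPM (log2 change −1.73, SE 0.28, adjusted p = 0.00015). Among the alternatives their smallest log2 changes were −1.31 and −0.85. Neither was called lower in allogeneic vehicle skin, where Dsc1 was at 469.6, 449 and 725 CPM and Dsg1a at 393, 1018 and 859 CPM, while the Wnt-C59 libraries were at 40.4 to 89.2 and 297 to 483 CPM. Of 17 genes that make barrier lipids, 7 rose and 2 fell. Alox12b, a lipoxygenase that the barrier needs, rose from 34.3, 29.0, 40.1 and 42.4 to 178, 161, 101 and 143 CPM (log2 change 2.00, SE 0.31, adjusted p = 0.00012). Of the differentiation genes, 5 were higher with the GC trend removed.

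Hair genes split the combination libraries. Of 10 inner root sheath genes and 14 hair shaft keratins, none passed in either direction, and 1 of 56 keratin-associated proteins fell. In allogeneic vehicle skin 9, 10 and 14 of these genes fell. Without combination libraries 4 and 5 the counts that fell in the combination were 9, 14 and 43, and without library 4 alone 1, 5 and 18. Krt85 is not analysed here.

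Krt71, an inner root sheath keratin chosen after its values were seen, was at 2365, 6522, 6651 and 3739 CPM in syngeneic and 0.660, 0.914, 15144 and 2002 CPM in combination libraries 2 to 5. Libraries 2 and 3 held almost none and library 4 more than any syngeneic library. The group means gave a log2 change of −0.17 (SE 1.74, adjusted p = 0.94), which describes neither pair. Without libraries 4 and 5 it was −12.55, adjusted p = 8.3e-07. Tchh, trichohyalin of the same sheath, showed the same split at 5.00, 3.66, 7040.3 and 544 CPM against 2083, 8242, 6714 and 3354 CPM (adjusted p = 0.46), as did the hair cuticle keratin Krt82 at 0.0776, 0.192, 91.8 and 11.2 CPM against 13.0, 95.2, 66.6 and 72.1 CPM (adjusted p = 0.45). Allogeneic vehicle libraries held 0 to 0.169 CPM of Krt71 and 0 to 0.0564 CPM of Krt82, and Wnt-C59 libraries 0.564 to 0.760 and 0 to 0.208 CPM. Without libraries 4 and 5 the log2 change of Tchh was −10.17, adjusted p = 5.1e-06, and that of Krt82 was −8.79, adjusted p = 6.5e-05. Krt82 was also called lower with limma-voom (adjusted p = 0.018). Without combination library 4, Tchh and Krt82 passed as lower than in syngeneic skin (adjusted p = 0.023 and 0.022). For Krt71 and Krt82 no Wnt-C59 library reached combination library 4 or 5.

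Regulators of the hair matrix followed the split. Lef1, the Wnt effector that drives hair keratin genes, was at 51.2, 68.1, 63.1 and 45.8 CPM in syngeneic and 2.37, 2.55, 26.3 and 26.2 CPM in combination libraries (log2 change −1.99, SE 0.67, adjusted p = 0.023). All 4 were below the syngeneic range, and libraries 4 and 5 were well above libraries 2 and 3. Shh, the signal of the growing hair bulb, chosen after its values were seen, was at 0.233, 0.0481, 4.24 and 18.2 CPM in the combination, at 30.9, 17.1, 21.9 and 17.4 CPM in syngeneic and at 0, 0 and 0.0564 CPM in allogeneic vehicle libraries. It did not pass against syngeneic skin (log2 change −1.94, SE 1.04, adjusted p = 0.13), and passed without combination library 5 (adjusted p = 0.0061), with limma-voom (adjusted p = 0.0024) and without libraries 4 and 5 (−7.11, adjusted p = 8.1e-06). The call of Lef1 was lost with the GC trend removed (adjusted p = 0.052), without syngeneic library 2 (adjusted p = 0.057), with no filter on low counts (adjusted p = 0.052) and in a fit of the 2 groups alone (adjusted p = 0.085). Of 14 regulators, 2 fell, with 11 that fell without combination libraries 4 and 5 and 9 without library 4.

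Genes of the bulge, where hair follicle stem cells reside, moved both ways. Of 13, 3 rose and 3 fell, near the shares over all genes, with a median of 0.20. In allogeneic vehicle skin 9 fell, with a median of −1.64. Krt15, a bulge and basal keratin chosen after its values were seen, was at 2346, 2324, 2242 and 2156 CPM in combination, 894, 1012, 2325 and 1257 CPM in syngeneic and 64.2, 162 and 120.1 CPM in allogeneic vehicle libraries. Against syngeneic skin it did not pass (log2 change 0.72, SE 0.31, adjusted p = 0.064), but it passed without syngeneic library 3 (adjusted p = 0.0044), with DESeq2 (adjusted p = 0.039) and with limma-voom (adjusted p = 0.045), and against allogeneic vehicle skin it was higher (log2 change 4.29, adjusted p = 3.9e-06). Tcf7l1, a repressor that keeps stem cells quiescent, rose from 23.03, 22.7, 25.1 and 21.9 to 35.5, 27.7, 51.3 and 49.5 CPM (log2 change 0.82, SE 0.20, adjusted p = 0.003), with allogeneic vehicle libraries at 6.32, 7.48 and 8.57 CPM. Its call was lost with the GC trend removed (adjusted p = 0.47) and without combination libraries 4 and 5 (adjusted p = 0.051). Fgf18, a bulge factor of the resting follicle, rose from 1.28, 2.69, 2.38 and 2.34 to 12.2, 15.6, 5.14 and 9.50 CPM (log2 change 2.29, SE 0.49, adjusted p = 0.0014) and was at 23.1, 35.4, 26.7 and 16.4 CPM under Wnt-C59.

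Hedgehog pathway genes fell in 6 of 12 cases and rose in 1. Ptch1, receptor and target of the pathway, fell from 229, 114, 103 and 128 to 13.9, 12.4, 29.4 and 48.1 CPM (log2 change −2.47, SE 0.41, adjusted p = 0.00022), and Gli3, a factor of the pathway, from 39.9, 45.6, 28.8 and 33.3 to 2.75, 3.46, 8.25 and 8.59 CPM (log2 change −2.68, SE 0.33, adjusted p = 1.9e-05). Hhip, a decoy receptor, fell from 22.8, 9.46, 7.10 and 12.4 to 0.466, 0.529, 2.20 and 3.71 CPM (log2 change −2.91, SE 0.58, adjusted p = 0.0008). For Gli3, Ptch1 and Hhip combination libraries 4 and 5 were the higher pair, yet below every syngeneic library. Gas1, a coreceptor that dermal cells also express, was the member that rose, from 62.2, 64.9, 57.7 and 76.8 to 177, 191, 193 and 139.9 CPM (log2 change 1.42, SE 0.14, adjusted p = 5.5e-06). Without combination libraries 2 and 3 the count that fell was 3, and it was also 3 without syngeneic library 1.

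Dermal papilla genes fell in 6 and rose in 2 of 14 cases, against 7 that fell in allogeneic vehicle skin. Alpl, alkaline phosphatase, a marker of the papilla that other cells also express, rose from 8.76, 6.77, 11.1 and 13.3 to 69.4, 238, 24.5 and 42.0 CPM (log2 change 3.23, SE 0.63, adjusted p = 0.00092), with library 3 far above the others. Rspo3, which enhances Wnt signals, fell from 6.51, 4.36, 4.58 and 5.16 to 1.20, 0.721, 1.58 and 3.08 CPM (log2 change −1.64, SE 0.39, adjusted p = 0.0025). Melanocyte genes fell in 4 of 10 cases. Tyr, the pigment enzyme tyrosinase, was at 14.2, 9.28, 8.38 and 7.19 CPM in syngeneic and 0, 0.0481, 2.26 and 3.12 CPM in combination libraries (log2 change −2.85, SE 0.94, adjusted p = 0.02), a call lost with the GC trend removed (adjusted p = 0.2), without syngeneic library 1 (adjusted p = 0.052) and in a fit of the 2 groups alone (adjusted p = 0.073). Without combination libraries 4 and 5 the count of melanocyte genes that fell was 10, without libraries 2 and 3 it was 2, and with the GC trend removed it was 1. It was 1 without syngeneic library 1, 2 without syngeneic library 2, 2 without combination library 3 and 8 without combination library 5.

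Sebaceous gland genes, which make and release sebum, were mostly at or above the syngeneic level in the combination and mostly low in allogeneic vehicle skin. Of 14 genes, 5 rose and 1 fell in the combination against syngeneic skin, while 9 fell and none rose in allogeneic vehicle skin. Directly compared, 11 were higher in the combination than in allogeneic vehicle skin and 0 lower. Far2 (ENSMUSG00000030303.16), which makes fatty alcohols for sebum and was chosen after its values were seen, was at 153, 129, 135 and 189.9 CPM in syngeneic, 3.22, 2.46 and 2.20 CPM in allogeneic vehicle and 156, 294, 164 and 146 CPM in combination libraries. The combination overlapped syngeneic skin (log2 change 0.32, SE 0.22, adjusted p = 0.22) and was above allogeneic vehicle skin in all 4 libraries (log2 change 6.17, adjusted p = 3.3e-08). With the GC trend removed Far2 passed as higher than in syngeneic skin (0.64, adjusted p = 0.032), as it did without combination libraries 4 and 5 (0.62, adjusted p = 0.046). The Wnt-C59 libraries were at 306, 362, 328 and 267 CPM.

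Awat1, which makes wax esters, also chosen after its values were seen, was at 35.5, 25.4, 42.8 and 40.1 CPM in syngeneic, 0, 0.240 and 0.338 CPM in allogeneic vehicle and 59.2, 116, 53.1 and 47.7 CPM in combination libraries. It was higher in the combination than in syngeneic skin (log2 change 0.94, SE 0.32, adjusted p = 0.024), a call lost without library 3 (adjusted p = 0.1) or without syngeneic library 2 (adjusted p = 0.063), without combination libraries 2 and 3 (adjusted p = 0.16) and with the length trend removed (adjusted p = 0.18). Krt79, a keratin of the duct through which sebum leaves, rose from 1049, 899, 1493 and 1275 to 3262, 2838, 2781 and 2666 CPM (log2 change 1.29, SE 0.39, adjusted p = 0.011) and was at 38.1, 154 and 259 CPM in allogeneic vehicle skin. Without combination libraries 2 and 3 its adjusted p was 0.051, and 2 genes of the list were called higher. Mc5r, the melanocortin receptor of sebaceous cells, was the member that fell, from 30.1, 42.4, 28.4 and 40.7 to 8.38, 9.67, 17.8 and 7.60 CPM (log2 change −1.71, SE 0.31, adjusted p = 0.00039), although allogeneic vehicle libraries were lower still at 1.82, 4.67 and 1.92 CPM.

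Of 24 genes of cholesterol and fatty acid synthesis, 8 rose and 4 fell, against 0 and 11 in allogeneic vehicle skin. Over all genes 26.9% rose and 27.2% fell in the combination. Mvk, mevalonate kinase of the cholesterol pathway, rose from 35.6, 39.0, 64.0 and 60.8 to 109.7, 155, 94.4 and 104 CPM (log2 change 1.21, SE 0.22, adjusted p = 0.00032). Adipocyte genes rose in 6 of 15 cases and in 1 in allogeneic vehicle skin. Pnpla2, the first lipase of stored fat, rose from 71.0, 90.6, 163 and 88.9 to 582, 439, 434 and 476 CPM (log2 change 2.22, SE 0.26, adjusted p = 1.6e-05), and Cidec, a protein of fat droplets, from 69.3, 86.5, 154 and 82.0 to 427, 288, 444 and 362 CPM (log2 change 1.96, SE 0.44, adjusted p = 0.0019). Allogeneic vehicle libraries were at 16.3, 70.2 and 56.7 CPM for Cidec, below every combination library. With the GC trend removed 3 adipocyte and 5 synthesis genes were higher, and the count of synthesis genes that rose was also 5 without combination library 3.

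Genes of skeletal muscle and of nerve sheath cells were also read. Of 20 muscle genes, 1 passed, Des, a filament protein of muscle, at 1734, 781, 216 and 112 CPM against 257, 157, 186 and 224 CPM (log2 change 1.79, SE 0.69, adjusted p = 0.042). Combination libraries 2 and 3 were high and libraries 4 and 5 low, and without libraries 2 and 3 the difference turned to −0.26, adjusted p = 0.68. The call of Des was also lost with the GC trend removed (adjusted p = 0.17), with the length trend removed (adjusted p = 0.06), with limma-voom (adjusted p = 0.2), with no filter on low counts (adjusted p = 0.086), in a fit of the 2 groups alone (adjusted p = 0.098) and without any 1 of combination library 2 or 3 or the 4 syngeneic libraries (adjusted p between 0.062 and 0.24), and without combination library 5 the count of muscle genes that rose was 4. Schwann cell genes rose in 6 and fell in 3 of 10 cases. Pmp22, a myelin protein that fibroblasts also express, rose from 78.9, 63.4, 89.8 and 89.1 to 324, 192, 153 and 218 CPM (log2 change 1.47, SE 0.22, adjusted p = 9.1e-05), and Cdh19, a cadherin of nerve sheath cells, fell from 8.21, 6.08, 5.08 and 9.00 to 1.78, 1.15, 2.15 and 3.30 CPM (log2 change −1.75, SE 0.28, adjusted p = 0.00015). The fall of Cdh19 lost its call with the GC trend removed (adjusted p = 0.17). Erythroid genes passed in 0 of 5 cases.

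The main fibrillar collagens Col1a1 and Col3a1 did not pass against syngeneic skin, and Col1a1 was higher than in allogeneic vehicle skin. Col1a1, the main collagen of the dermis, was at 1731, 1269, 3857 and 1603 CPM in syngeneic, 538, 304 and 333 CPM in allogeneic vehicle and 1031, 859.5, 1708 and 2492 CPM in combination libraries. The combination overlapped syngeneic skin and did not pass (log2 change −0.47, SE 0.39, adjusted p = 0.32), and it was higher than allogeneic vehicle skin (log2 change 1.96, adjusted p = 0.0021). Libraries 2 and 3 were the lower pair. Col3a1, its partner in fine fibrils, was at 1727, 1298, 2505 and 1719, 1014, 435 and 499 and 1038, 992, 1666 and 1759 CPM in the same order of groups (log2 change −0.41, SE 0.28, adjusted p = 0.23). With the GC trend removed Col1a1 passed as lower than in syngeneic skin (−1.06, adjusted p = 0.032).

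Of 22 collagens, 5 rose and 3 fell, with a median of −0.24, against 2 and 12 in allogeneic vehicle skin with a median of −0.74. This count hung on the processing, with 2 higher and 8 lower after removal of the GC trend and 10 higher and 1 lower after removal of the length trend. Col6a1, a chain of the beaded collagen around cells, rose from 294, 168, 364 and 223 to 679, 398, 449 and 793 CPM (log2 change 1.15, SE 0.25, adjusted p = 0.0013), a call lost with the GC trend removed (adjusted p = 0.058). Col6a2 ranged over 166 to 393 CPM in syngeneic and 411 to 791 CPM in combination skin (log2 change 1.13, SE 0.26, adjusted p = 0.002). Col6a5, another chain of that family, rose from 3.39, 1.99, 1.37 and 0.882 to 81.7, 20.8, 5.43 and 19.7 CPM (log2 change 4.06, SE 0.82, adjusted p = 0.0012), with library 2 the highest. Col11a1, a chain that helps to start fibrils, fell from 41.3, 25.3, 28.0 and 22.6 to 1.55, 1.30, 4.18 and 11.0 CPM (log2 change −2.70, SE 0.59, adjusted p = 0.0016), with allogeneic vehicle libraries at 2.19, 2.99 and 3.67 CPM.

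Enzymes that process and crosslink collagen gave 14 up and 2 down of 20, with a median of 0.88. In allogeneic vehicle skin 6 rose and 5 fell. Loxl1, a crosslinker of elastin, was at 24.5, 21.0, 44.3 and 33.8 CPM in syngeneic, 29.3, 31.0 and 24.8 CPM in allogeneic vehicle and 212, 174, 101 and 133 CPM in combination libraries. Its combination values exceeded both vehicle groups (log2 change 2.32, SE 0.28, adjusted p = 1.9e-05 against syngeneic skin, and log2 change 2.45, adjusted p = 2.8e-05 against allogeneic vehicle skin). Plod3, a lysyl hydroxylase, rose from 54.2, 53.4, 74.6 and 51.2 to 209, 252, 122 and 164 CPM (log2 change 1.68, SE 0.21, adjusted p = 2.3e-05), and Plod1, another one, from 32.7, 22.6, 41.1 and 25.0 to 119, 85.8, 63.5 and 107 CPM (log2 change 1.63, SE 0.25, adjusted p = 9e-05). The Wnt-C59 libraries were at 55.5, 104, 106 and 83.6 CPM for Loxl1 and 104, 139.7, 134 and 99.4 CPM for Plod3, above syngeneic skin as well. With the GC trend removed 6 genes of this list were higher.

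Elastic fibre genes rose in 11 and fell in 1 of 17 cases, while in allogeneic vehicle skin 0 rose and 5 fell. Eln, elastin itself, was at 81.6, 67.6, 143 and 61.4 CPM in syngeneic, 33.8, 30.4 and 45.1 CPM in allogeneic vehicle and 197, 192, 305 and 196 CPM in combination libraries (log2 change 1.33, SE 0.27, adjusted p = 0.00081). It lay above syngeneic skin in all 4 combination libraries and below it in all 3 allogeneic vehicle libraries (log2 change −1.28, adjusted p = 0.0048). Efemp2, a fibulin that loads the crosslinker onto elastin, rose from 13.1, 12.5, 23.9 and 18.0 to 70.9, 81.8, 40.1 and 53.5 CPM (log2 change 1.87, SE 0.26, adjusted p = 4.5e-05). Fbln5, another fibulin of elastic fibres, ranged over 28.3 to 38.4 CPM in syngeneic and 68.4 to 76.5 CPM in combination skin (log2 change 1.09, SE 0.17, adjusted p = 0.0001). The count higher was 6 with the GC trend removed, and 7 without combination libraries 2 and 3.

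Small proteoglycans that bind collagen rose in 4 and fell in 2 of 10 cases, and rose in 2 without syngeneic library 2. Prelp, a linker of collagen to basement membranes, rose from 49.3, 49.1, 64.2 and 45.6 to 232, 275, 132 and 184 CPM (log2 change 1.98, SE 0.24, adjusted p = 2e-05). Ogn, osteoglycin, was lower at 17.1, 6.59, 12.9 and 14.3 CPM against 60.0, 26.2, 23.1 and 31.4 CPM (log2 change −1.47, SE 0.38, adjusted p = 0.005), with a difference of 0.09, adjusted p = 0.85 after removal of the GC trend. Matricellular proteins, which signal from the matrix, rose in 14 and fell in 1 of 18 cases, against 7 and 2 in allogeneic vehicle skin.

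Tnc, tenascin of wounds and scars, was at 41.2, 68.5, 52.5 and 43.8 CPM in syngeneic, 287, 128 and 242 CPM in allogeneic vehicle and 331, 1438, 148 and 154 CPM in combination libraries (log2 change 3.33, SE 0.73, adjusted p = 0.0021). All combination libraries exceeded syngeneic skin, with library 3 the highest of the 15, while the Wnt-C59 libraries at 79.7, 22.1, 28.6 and 55.2 CPM overlapped syngeneic skin. By direct test 0 of the 18 matricellular genes passed between the combination and Wnt-C59. Ccn1, a target of the mechanical factors YAP and SRF, rose from 17.9, 14.9, 23.7 and 17.5 to 190.2, 539, 47.0 and 61.1 CPM (log2 change 3.50, SE 0.66, adjusted p = 0.00077), again with library 3 the highest. Ccn2, connective tissue growth factor, rose from 36.0, 42.0, 52.2 and 28.1 to 90.2, 126, 104 and 78.2 CPM (log2 change 1.33, SE 0.23, adjusted p = 0.0003), and allogeneic vehicle libraries were at 38.9, 34.2 and 58.4 CPM. Thbs1, thrombospondin, which activates TGF-beta, rose from 81.9, 87.5, 61.6 and 60.5 to 170.0, 398, 150.2 and 110.2 CPM (log2 change 1.51, SE 0.34, adjusted p = 0.0019). Timp1, an inhibitor of matrix proteases, rose from 3.90, 5.66, 9.52 and 7.85 to 68.1, 147, 12.4 and 41.8 CPM (log2 change 3.32, SE 0.73, adjusted p = 0.0021). Of 19 matrix proteases and inhibitors 9 rose and 2 fell.

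Fibroblast identity genes rose in 8 and fell in 2 of 17 cases, but 2 rose with the GC trend removed and 2 without combination libraries 2 and 3. The count that rose was 5 without syngeneic library 2 and 5 without combination library 3. Gsn, gelsolin, which cuts actin filaments, rose from 1174, 819, 1744 and 1218 to 5626, 3499.5, 2935 and 3653 CPM (log2 change 1.67, SE 0.28, adjusted p = 0.00022), with allogeneic vehicle libraries at 440.2, 850.3 and 748 CPM. Fap, a protease of activated fibroblasts, was lower at 8.03, 4.38, 8.99 and 9.05 CPM against 17.3, 20.5, 18.0 and 19.0 CPM (log2 change −1.30, SE 0.22, adjusted p = 0.00025), a call lost with the GC trend removed (adjusted p = 0.49). Myofibroblast genes rose in 4 and fell in 2 of 12 cases, against 26.9% higher and 27.2% lower over all genes. Acta2, the actin of myofibroblasts and of vessel muscle, was at 126, 204, 326 and 252 CPM in syngeneic and 566, 499, 374 and 338 CPM in combination libraries (log2 change 0.97, SE 0.26, adjusted p = 0.0064), a call lost without combination libraries 2 and 3 (adjusted p = 0.093). Allogeneic vehicle libraries held 129, 188 and 185 CPM and Wnt-C59 libraries 508, 509.8, 584 and 359 CPM.

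Genes of TGF-beta signalling, the main driver of scarring, moved both ways, 6 up and 4 down of 18. These shares are near the 26.9% higher and 27.2% lower over all genes. Tgfb1, the ligand, was at 31.8, 26.3, 38.8 and 36.1 CPM in syngeneic, 86.0, 60.0 and 75.8 CPM in allogeneic vehicle and 139.6, 125, 92.4 and 109.7 CPM in combination libraries. It rose without overlap (log2 change 1.81, SE 0.16, adjusted p = 4.4e-06) and was also higher than in allogeneic vehicle skin (log2 change 0.66, adjusted p = 0.0049). Its receptor Tgfbr1 was lower, at 16.1, 18.0, 19.7 and 16.7 CPM against 59.1, 52.5, 33.1 and 42.5 CPM (log2 change −1.41, SE 0.18, adjusted p = 2.9e-05), as was Itgav, an integrin chain that activates the latent ligand, at 22.6, 22.2, 26.4 and 27.5 CPM against 119.5, 109.5, 63.2 and 91.5 CPM (log2 change −1.96, SE 0.22, adjusted p = 1.1e-05). Under Wnt-C59 both were also below every syngeneic library, at 15.7 to 19.4 and 24.1 to 36.5 CPM, and neither passed in allogeneic vehicle skin (adjusted p = 0.087 and 0.28). Among the alternatives the smallest log2 change of Tgfbr1 against syngeneic skin was −0.40.

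Targets of SRF and its actin-sensing partner MRTF, a pathway downstream of ROCK, rose in 13 and fell in 1 of 20 cases, with a median of 1.03 against 0.15 in allogeneic vehicle skin. Zyx, zyxin of focal adhesions, was at 77.5, 105, 118 and 92.6 CPM in syngeneic, 118, 97.2 and 114 CPM in allogeneic vehicle and 366, 291, 303 and 225 CPM in combination libraries (log2 change 1.59, SE 0.17, adjusted p = 8.4e-06). Cnn2, a calponin, rose from 79.7, 81.1, 119 and 116 to 220.1, 259, 163 and 201 CPM (log2 change 1.09, SE 0.18, adjusted p = 0.00016), and Srf itself from 49.7, 49.6, 53.7 and 57.6 to 132, 184, 89.2 and 89.0 CPM (log2 change 1.23, SE 0.21, adjusted p = 0.00028). Cnn1, calponin of smooth muscle, ranged over 9.50 to 18.0 CPM in syngeneic and 20.5 to 49.3 CPM in combination skin (log2 change 1.36, SE 0.29, adjusted p = 0.0011). For Zyx the combination also exceeded every Wnt-C59 library, which lay at 153, 159, 199 and 163 CPM, but that difference did not pass (log2 change 0.81, adjusted p = 0.055).

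**Figure D5:**
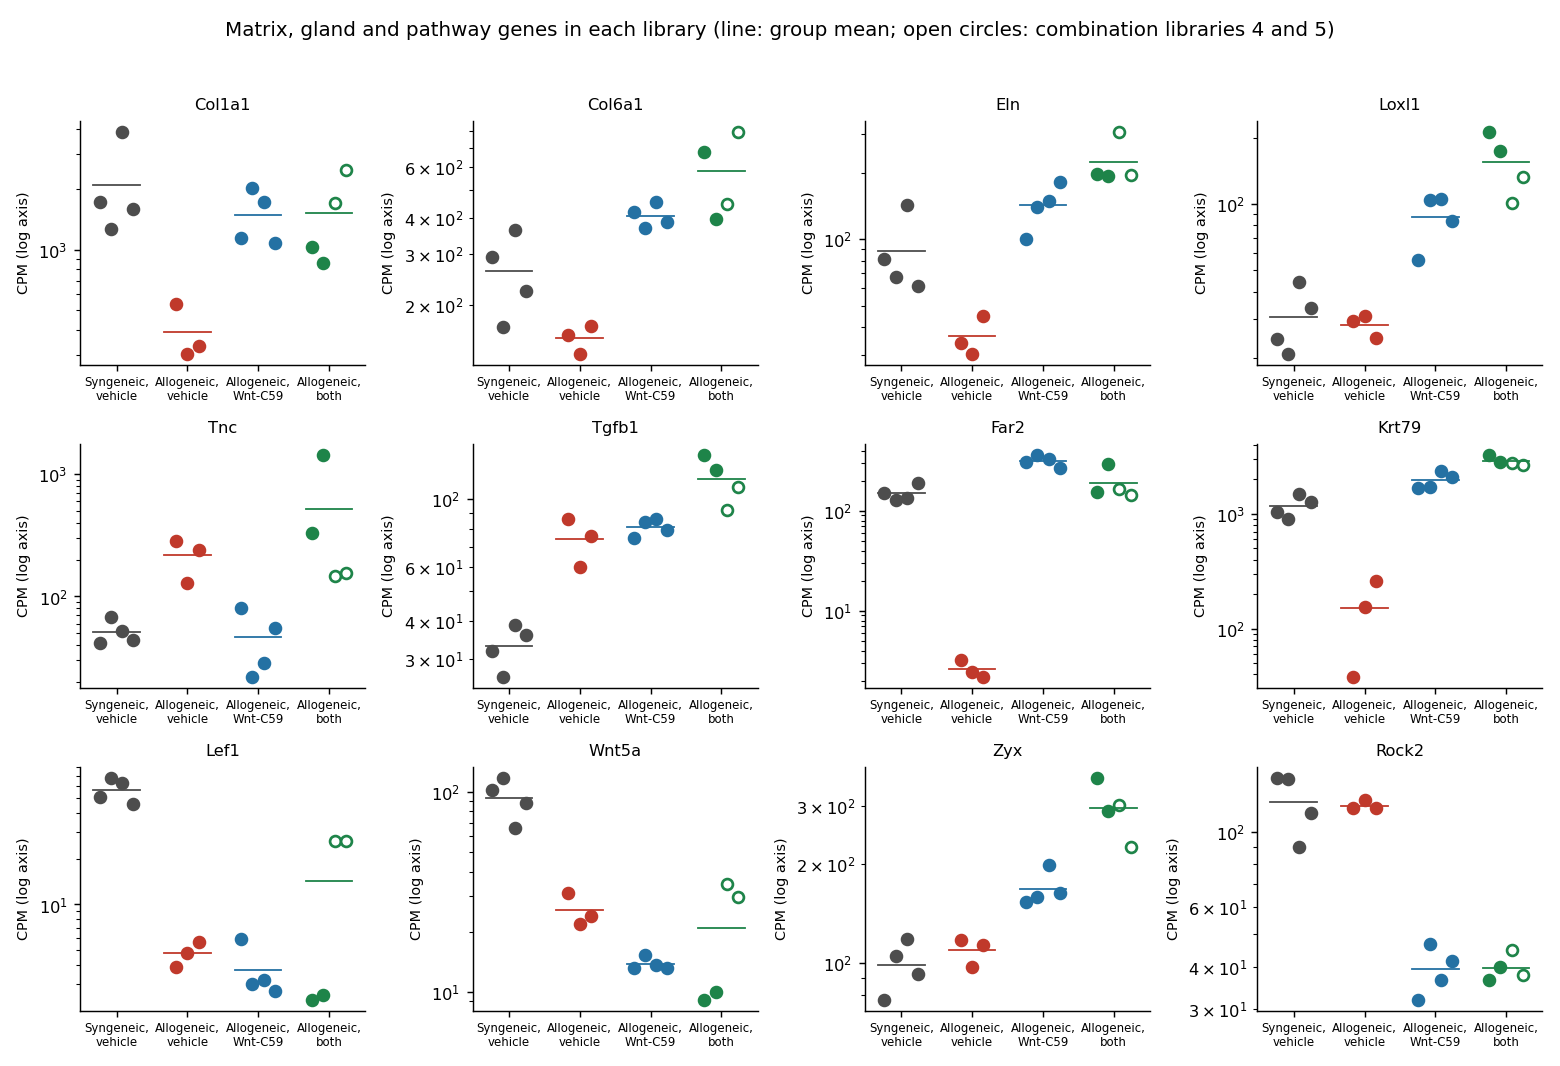
CPM on a log axis of 12 matrix, gland and pathway genes in each of the 15 libraries, with group means as lines and combination libraries 4 and 5 as open circles. Col1a1 and Far2 of the combination overlap syngeneic skin, Loxl1, Eln, Tgfb1 and Zyx lie above it, and Rock2 lies below both vehicle groups in all 8 treated libraries.

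RNA of the drug targets was read next. Porcn, which encodes porcupine, was at 14.7, 21.8, 16.1 and 15.0 CPM in syngeneic, 51.8, 18.9 and 54.1 CPM in allogeneic vehicle and 21.96, 24.1, 34.8 and 22.4 CPM in combination libraries. It did not pass against syngeneic skin (log2 change 0.61, SE 0.31, adjusted p = 0.11), except in a fit of the 2 groups alone (adjusted p = 0.033). Rock2, the target of belumosudil, was at 144, 143, 89.9 and 113 CPM in syngeneic and 36.4, 39.8, 44.8 and 37.7 CPM in combination libraries (log2 change −1.63, SE 0.16, adjusted p = 6e-06), and Rock1 at 107, 82.7, 54.2 and 81.0 and 13.0, 14.2, 16.1 and 19.1 CPM (log2 change −2.38, SE 0.22, adjusted p = 4.9e-06). The Wnt-C59 libraries, which had no belumosudil, were also below every syngeneic library, at 32.0, 46.7, 36.6 and 41.6 CPM for Rock2 and 22.96, 19.9, 14.3 and 23.7 CPM for Rock1. Allogeneic vehicle skin did not differ by test from syngeneic skin in either (adjusted p = 0.9 and 0.58). Of 16 ROCK pathway genes 6 rose and 5 fell, against 26.9% higher and 27.2% lower over all genes. Ppp1r12a, the myosin phosphatase subunit that ROCK phosphorylates, fell from 139, 119, 86.6 and 102 to 27.2, 29.2, 36.9 and 38.0 CPM (log2 change −1.77, SE 0.17, adjusted p = 6e-06). Among the alternatives the smallest log2 changes were −0.68 for Rock2 and −0.65 for Ppp1r12a. Both drugs act on proteins, and these values are RNA levels.

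Wnt ligands rose in 4 and fell in 5 of 16 cases, near the shares over all genes, while 7 fell in allogeneic vehicle skin. The count that rose was 1 with the GC trend removed, 2 without syngeneic library 1 and also 2 without syngeneic library 2. Wnt5a, a ligand of the dermis and hair follicle, was at 102, 118, 66.4 and 87.8 CPM in syngeneic, 31.4, 21.7 and 23.9 CPM in allogeneic vehicle and 9.16, 10.0, 34.8 and 29.7 CPM in combination libraries (log2 change −2.16, SE 0.37, adjusted p = 0.00031). Libraries 4 and 5 were the higher pair, within or just above the allogeneic vehicle range, and libraries 2 and 3 were below it. Wnt10a, an epidermal ligand, rose from 27.3, 27.3, 42.6 and 34.4 to 98.3, 121, 67.9 and 86.9 CPM (log2 change 1.51, SE 0.21, adjusted p = 5.4e-05). Genes of Wnt secretion gave 1 up and 4 down of 9, and 4 up and 2 down with the GC trend removed. Wls, the carrier of lipid-bearing Wnt, was at 168, 167, 149 and 154 CPM in syngeneic and 76.4, 68.0, 130.4 and 110.4 CPM in combination libraries (log2 change −0.73, SE 0.18, adjusted p = 0.003), and its difference was 0.11, adjusted p = 0.59 with the GC trend removed and −0.33, adjusted p = 0.11 without combination libraries 2 and 3. Vps35, which recycles that carrier, was lower (log2 change −0.71, SE 0.14, adjusted p = 0.00066) and turned to 0.64, adjusted p = 0.00033 with the GC trend removed, and its adjusted p was 0.051 with the length trend removed. Tmed5, a cargo receptor for Wnt export, fell from 99.1, 124, 77.8 and 112 to 16.2, 21.0, 22.04 and 21.6 CPM (log2 change −2.35, SE 0.22, adjusted p = 5.3e-06), with the Wnt-C59 libraries at 14.4 to 28.0 CPM. Its smallest log2 change against syngeneic skin among the alternatives was −0.70.

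Wnt receptors were lower, 12 of 20 down and 3 up, against 15 down in allogeneic vehicle skin. Lrp6, a coreceptor, fell from 163, 140.4, 88.7 and 112 to 28.2, 27.9, 51.7 and 39.2 CPM (log2 change −1.78, SE 0.22, adjusted p = 2.2e-05), with allogeneic vehicle libraries at 113, 94.2 and 137 CPM. Lrp5, the other coreceptor, rose from 122, 113, 116 and 109 to 216, 227, 194 and 195 CPM (log2 change 0.85, SE 0.13, adjusted p = 7.8e-05). Lgr4, a receptor for R-spondins, fell from 113, 88.6, 69.0 and 77.6 to 16.7, 19.5, 46.4 and 28.0 CPM (log2 change −1.65, SE 0.27, adjusted p = 0.00016), and in allogeneic vehicle skin it lay at 18.3, 25.1 and 22.95 CPM. The count of receptors called lower was 7 without combination libraries 2 and 3.

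Among targets of Wnt and beta-catenin, 10 of 17 fell and 2 rose, against 12 that fell in allogeneic vehicle skin. Without combination libraries 2 and 3 the count that fell was 2, and without syngeneic library 2 it was 5. Axin2, the feedback inhibitor most used as a readout, was at 65.8, 60.3, 43.0 and 57.6 CPM in syngeneic, 20.2, 38.8 and 35.6 CPM in allogeneic vehicle, 71.0, 80.3, 31.4 and 24.9 CPM in Wnt-C59 and 19.7, 21.2, 18.0 and 33.9 CPM in combination libraries. It was lower in the combination (log2 change −1.29, SE 0.35, adjusted p = 0.0072), a call lost without libraries 2 and 3 (adjusted p = 0.1), and Wnt-C59 libraries lay on both sides of the syngeneic range. Znrf3, a ligase that removes Wnt receptors, fell from 51.0, 47.7, 27.7 and 37.6 to 6.44, 12.4, 12.5 and 12.8 CPM (log2 change −1.89, SE 0.26, adjusted p = 4.5e-05). Myc, a target with many other inputs, rose from 45.9, 52.8, 53.4 and 47.8 to 116, 194, 67.7 and 90.3 CPM (log2 change 1.23, SE 0.25, adjusted p = 0.00096), while allogeneic vehicle libraries were at 40.5, 31.0 and 38.2 CPM. Sfrp5, a secreted Wnt antagonist, rose from 3.30, 3.76, 5.40 and 4.10 to 74.9, 26.9, 13.6 and 16.4 CPM (log2 change 2.99, SE 0.61, adjusted p = 0.0012).

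Genes of the cell cycle, immediate early and stress genes follow. Of 22 cell cycle genes, 4 rose and 7 fell, with 2 that rose without combination library 3 and 11 that fell without libraries 4 and 5. These shares are near those over all genes. Mki67, a marker of dividing cells, fell from 397, 276, 236 and 226 to 17.4, 22.5, 42.0 and 65.3 CPM (log2 change −2.95, SE 0.41, adjusted p = 5.9e-05), and Top2a, which untangles DNA in division, from 213, 162, 160.1 and 137 to 34.3, 45.1, 53.9 and 78.1 CPM (log2 change −1.67, SE 0.25, adjusted p = 8.6e-05). Under Wnt-C59 they lay at 24.0 to 41.0 and 32.5 to 45.9 CPM. Among the alternatives the smallest log2 changes were −1.93 for Mki67 and −1.01 for Top2a. The whole cell cycle list had a median log2 change of −0.24. Its mean level was 4.53, 4.87, 4.95 and 5.48 log2 CPM in combination libraries 2 to 5, against 5.35 to 5.58 in syngeneic libraries. Immediate early genes rose in 13 and fell in 2 of 17 cases, and rose in 8 with the GC trend removed. Egr2 rose from 60.5, 68.2, 72.6 and 53.6 to 126, 103, 142 and 118 CPM (log2 change 0.94, SE 0.15, adjusted p = 0.00017) and fell in allogeneic vehicle skin (log2 change −1.10, adjusted p = 0.0003). Jun, a subunit of AP-1, rose from 79.6, 80.2, 79.3 and 88.1 to 214, 158, 229.7 and 163 CPM (log2 change 1.22, SE 0.17, adjusted p = 4.9e-05), and Fosl2, another subunit, fell from 244, 274, 189 and 214 to 71.0, 108, 98.4 and 77.1 CPM (log2 change −1.38, SE 0.22, adjusted p = 0.00015).

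Heat shock genes rose in 5 of 9 cases. Hspa8, a chaperone present in every cell, rose from 509, 604, 907 and 565 to 1713, 2136, 1298 and 1779 CPM (log2 change 1.42, SE 0.22, adjusted p = 0.00011), and Hspa1a, an inducible one, from 65.6, 74.6, 88.0 and 88.1 to 299, 402, 246 and 388 CPM (log2 change 2.08, SE 0.24, adjusted p = 1.4e-05). Hmox1, which breaks down heme under oxidative stress, rose from 27.7, 41.8, 56.5 and 42.8 to 148, 141, 135 and 108 CPM (log2 change 1.66, SE 0.22, adjusted p = 3e-05), and allogeneic vehicle libraries were at 117, 69.2 and 114 CPM. Of 13 mitochondrially encoded genes, 6 fell, and 2 fell and 3 rose with the GC trend removed. Without syngeneic library 3 the count of mitochondrially encoded genes that fell was 11.

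The largest rises against syngeneic skin were read by a fixed rule. Gvin1, an interferon-induced GTPase, had 0 counts in the syngeneic libraries and 7.76, 1.97, 4.07 and 8.91 CPM in combination libraries 2 to 5. It was at least 41.6-fold higher, at a floor of 3 counts per library. Allogeneic vehicle libraries held 65.7, 42.3 and 95.8 CPM, more than the combination (log2 change −3.58, adjusted p = 0.0017). Fgf23, a hormone of phosphate balance made mainly in bone, had 1 count in the syngeneic libraries and 14.3, 28.6, 0.678 and 1.31 CPM in the combination. The ratio was 1020 (95% counting interval 183 to 40400), and libraries 2 and 3 carried most of it. Apol7c, an apolipoprotein of dendritic cells, had 3 counts in syngeneic skin and 10.4, 11.6, 3.96 and 7.28 CPM in the combination, a ratio of 251 (95% counting interval 85.6 to 1220). Such intervals cover counting error only. F7, coagulation factor VII, was at 0.229, 0.232, 0.366 and 0.397 CPM in syngeneic and 26.7, 10.4, 7.40 and 18.3 CPM in combination libraries (log2 change 5.65, SE 0.56, adjusted p = 6.5e-06), and at 23.3, 10.4 and 32.8 CPM in allogeneic vehicle skin. Tarm1, a receptor of myeloid cells, was at 0.275, 0.232, 0 and 0 and 9.43, 9.33, 1.75 and 3.89 CPM (log2 change 5.54, SE 0.85, adjusted p = 0.00012). All 5 of these genes rose in allogeneic vehicle skin too, Fgf23 to 1.88, 0.898 and 1.02 CPM (adjusted p = 0.014).

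Most of the largest falls followed the split between treated and vehicle libraries, and Exosc6 and Ush1g did not. Exosc6, a subunit of the RNA exosome, was at 0.917, 3.25, 12.7 and 4.54 CPM in syngeneic libraries and had 0 counts in the combination, at least 38.5-fold lower at a floor of 3 counts per library. It was listed at 0 in the 3 allogeneic vehicle libraries too, and among Wnt-C59 libraries it was above 0 in library 5, at 4.33 CPM. Its call (adjusted p = 0.028) was lost without combination library 2 (adjusted p = 0.053), without syngeneic library 2 or 4 (adjusted p = 0.051 and 0.05), without either pair of combination libraries (adjusted p = 0.11 and 0.081) and with no filter on low counts (adjusted p = 0.071).

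Atp7a, a copper transporter, was at 38.1, 34.3, 8.29 and 25.8 CPM in syngeneic and 0.543, 0.914, 1.19 and 1.09 CPM in combination libraries (log2 change −4.84, SE 0.50, adjusted p = 7.9e-06). Allogeneic vehicle libraries held 33.8, 23.8 and 38.6 CPM and Wnt-C59 libraries 0.974, 0.992, 0.313 and 0.380 CPM, so all 8 treated libraries were low and all 7 vehicle libraries high. Nr2c2, a nuclear receptor, had the same order at 15.3 to 78.4 CPM in syngeneic, 47.4 to 69.3 CPM in allogeneic vehicle, 1.30 to 3.82 CPM in Wnt-C59 and 1.67 to 3.05 CPM in combination skin (log2 change −4.52, SE 0.46, adjusted p = 8.7e-06). The same held for mt-Nd3, a mitochondrially encoded subunit of complex I, at 252 to 328, 109.7 to 320.1, 8.38 to 19.0 and 2.69 to 11.1 CPM (log2 change −5.09, SE 0.50, adjusted p = 7.8e-06). Malat1, given above, had a log2 change of −4.43 (adjusted p = 2.1e-06). Of the genes with the largest falls, Pdpr, Rbm41, Prrg4 and Zfp169 also held this order, and what in the making of the libraries goes with it was not tested. Ush1g, a scaffold protein, had 1 count in the combination and 3.26, 13.7, 2.29 and 5.12 CPM in syngeneic libraries, a ratio of 524 (95% counting interval 93.6 to 20700), and it fell in allogeneic vehicle skin too (log2 change −6.17, adjusted p = 0.0017).

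Between the combination and Wnt-C59 alone, 43 genes (0.231%) differed, 19 higher and 24 lower in the combination. Of the genes named above, Fscn1 was higher (log2 change 1.32, adjusted p = 0.046) and Cdh19 lower (log2 change −1.71, adjusted p = 0.03) in the combination. Fscn1 stood at 126, 201, 119 and 107 CPM in combination and 61.3, 41.8, 66.8 and 52.0 CPM in Wnt-C59 libraries, and Cdh19 at 1.78, 1.15, 2.15 and 3.30 and 7.84, 7.04, 5.63 and 7.03 CPM. For neither did the groups overlap. The count of 43 moved strongly with the processing, as DESeq2 called 900 genes higher and 620 lower, and no gene was higher and 1 lower by edgeR without combination library 3. At an unadjusted p under 0.05 the edgeR test held 3892 genes.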

How the data were processed

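RNA from whole skin was sequenced, and the authors' deposited table gives estimated counts per gene for 56059 genes and 15 libraries. The submitters' processing notes name build GRCm39 and list featureCounts, HISAT2, Trim Galore and FastQC, without versions or roles. Strand setting and annotation release are not given in the sources used here. Because many values are not whole, these expected counts, as the authors deposited them, were rounded, where whole counts had been planned for. Combination columns were matched to their group by elimination, since every other column names a group of its own.

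Symbols came from GENCODE M21 for 51276 genes (91.5%), which also gave GC content and length. Counts were tested with edgeR 4.0.16 (R 4.3.3) by the quasi-likelihood test with TMM scaling, filterByExpr (18651 genes kept) and Benjamini-Hochberg adjustment over all genes tested, in 1 fit of 15 libraries. Levels are CPM of the scaled libraries, and log2 levels add 0.5 CPM. Alternatives were DESeq2 1.42.0, limma-voom (limma 3.58.1), RLE and upper quartile scaling, no filter, a fit of 2 groups, removal of a lowess trend with GC content or length (span 0.2), and each library left out. No replicate pair was a copy of another. In a test on simulated data for the combination against syngeneic skin (18136 genes), 31% of 2-fold and 82% of 4-fold changes were recovered. The simulation changed a smaller share of genes than was called here, so these rates do not give the power of the reported test.

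The 64 gene lists and all genes named were chosen with earlier results of these data known. From each list up to 4 called members with the smallest adjusted p qualified (or the 2 smallest where none was called), with the 10 largest rises and falls and a set of pathway genes, and the text names part of these. Rises and falls had to be protein-coding, without overlap between groups, and at 5 CPM or more in the higher group. List counts are over members tested. Genes with near-identical copies, or with an overlapping gene on the other strand, are uncertain.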

Additional observations from a re-analysis of the deposited data

Results flagged for a closer look

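Differences between the combination and Wnt-C59 alone passed a direct test for Cdh19 with a log2 change of −1.71 and Fscn1 with 1.32. Without combination library 3 no gene was called higher in that comparison and 1 lower, so the call of Fscn1 was lost there.

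In some groups of 4 a single library stood far from the other 3 on the log2 scale, which chance alone gives in about 1 in 20 groups. Since the genes named above were screened in each group of 4, many such libraries can arise by chance alone. Syngeneic library 3 was such a library for Dsc1 (129 CPM), H2-Eb1 (360.4 CPM), Lyz2 (305 CPM), Oas1a (40.3 CPM) and Plod3 (74.6 CPM). Syngeneic library 1 stood apart for Batf3 (0.413 CPM) and Cdsn (288 CPM), and syngeneic library 4 for Jun (88.1 CPM). Among combination libraries, library 2 stood apart for Tmed5 (16.2 CPM) and Znrf3 (6.44 CPM), library 3 for Fap (4.38 CPM), Far2 (294 CPM) and mt-Nd3 (2.69 CPM), and library 4 for Eln (305 CPM). Under Wnt-C59 alone, library 1 stood apart for Fgf23 (1.23 CPM), Krt16 (1182 CPM) and Krt6a (1471 CPM), and library 2 for Ccr7 (1.19 CPM), H2-Aa (519 CPM), H2-Eb1 (557 CPM) and Mvk (90.0 CPM). Library 4 of that group stood apart for Alpl (29.9 CPM), Cd4 (5.94 CPM) and Cidec (111 CPM), and library 5 for Exosc6 (4.33 CPM) and Myc (55.7 CPM).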

How the results depend on the processing

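Between combination and syngeneic skin the counts of 5013 genes higher and 5068 lower stayed within 1.5 times under every alternative run, at 4373 to 5064 and 4213 to 5261 with 1 library left out, 4291 and 3966 with the GC trend removed, and 3798 and 3569 without combination libraries 2 and 3. The last alternative and its counterpart without libraries 4 and 5 were chosen after seeing the data. Of 158 named genes, removal of the GC trend ended the call of 10 and turned 3, Ogn to 0.09, Vps35 to 0.64 and Wls to 0.11 (log2 change). Des turned to −0.26 without combination libraries 2 and 3. For allogeneic vehicle against syngeneic skin the count lower was 1653 to 2565 with 1 library left out. The counts between the combination and Wnt-C59, 19 higher and 24 lower, were 900 and 620 with DESeq2, 40 and 38 with the length trend removed and 3 and 15 in a fit of these 2 groups. With limma-voom 40 were lower. Without combination libraries 2 and 3 they were 422 and 248, without libraries 4 and 5 257 and 123, and with 1 library left out 0 to 31 and 1 to 15. The cause was not tested. No paired analysis was possible because the combination and Wnt-C59 columns carry numbers that differ from those of the sample titles. Genes at a few counts per library, such as Ifng, have wide errors.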
